A study of Homo sapiens with 9 samples.

Results

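The ephrins and their Eph receptors, and the semaphorins with the plexins and neuropilins that receive them, were described across 3 human kidney cell lines grown in Plasmax, a medium modelled on the nutrients of human plasma. The members were the rows of the deposited count table whose NCBI gene identifier carries the symbol of an Eph receptor of class A or B, an ephrin of class A or B, a semaphorin, a plexin or a neuropilin, with antisense genes left out. There were 53 such genes among the 28395 listed, namely 14 Eph receptors, 8 ephrins, 20 semaphorins, 9 plexins and 2 neuropilins, and 40 of them had enough counts to be tested. HK2 is a line of proximal tubule cells from normal kidney, 786-O is a line from a primary clear cell renal cell carcinoma (ccRCC), and 786-M1A was derived from 786-O through lung metastases that formed after injection in vivo. All 3 lines were untreated, and 3 cultures of each were sequenced as separate libraries. The carcinoma lines were compared with the tubule line, and the metastatic derivative with its parental line. Each group is 1 established line, so that every difference below is between these lines and its p-value measures the spread between cultures of a line. Since 786-O was not derived from HK2, words such as rise and fall against HK2 stand for a higher or lower level only.

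Ephrins and most semaphorins are ligands held on, or secreted close to, the cell surface, and they are best known for the way they steer growing axons. A-class ephrins are anchored by a lipid and mainly bind EphA receptor kinases, while B-class ephrins span the membrane and mainly bind EphB receptors. Contact between cells can signal both into the cell with the receptor and into the cell with the ephrin, and often ends in repulsion or in the sorting of cells into separate territories. Semaphorins signal through plexins, which act on small GTPases and so on the cytoskeleton and on integrin adhesion. The secreted class 3 semaphorins mostly need a neuropilin as co-receptor, which also binds VEGF. Both systems are known for vessel patterning and branching epithelia, the kidney included, and for the migration of tumour cells.

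Library totals ran from 30212291 to 45362428 reads assigned to genes. Levels are given as CPM, the counts divided by library totals that were corrected by edgeR's TMM factors and put on the usual common scale, and 3 counts, used here as the floor below which a gene was not called detected, correspond to 0.0647 to 0.0964 CPM. Of 14 renal epithelium markers summed per library, HK2 held 2550 to 2594 CPM, 786-O 1261 to 1292 CPM and 786-M1A 1329 to 1436 CPM, while *LRP2*, the proximal tubule endocytic receptor, was at or under the floor in all 9 libraries. The renal markers did not move alike. In the order HK2, 786-O and 786-M1A, *CDH6* averaged 884, 409 and 266 CPM and *KRT19* 105, 5.90 and 186 CPM. *PAX8* averaged 167, 165 and 182 CPM and *PAX2* 3.48, 24.9 and 10.6 CPM. The 5 measured markers of ccRCC summed to 1414 to 1490 CPM in HK2, 5171 to 5294 CPM in 786-O and 7026 to 7253 CPM in 786-M1A, although *CA9* among them was at or under the floor throughout. Most of this sum was *VIM*, at 1397, 4844 and 6537 CPM on average, and *ANGPTL4* was not called in any comparison. The 6 endothelial markers summed to 2.63 to 2.76 CPM in HK2, 0.472 to 0.698 CPM in 786-O and 0.313 to 0.370 CPM in 786-M1A, of which *TIE1* gave the most in HK2 and 786-O and *PECAM1*, *CDH5* and *VWF* were at or under the floor in every library. Of the leukocyte markers, *CD68* averaged 50.9, 27.0 and 36.0 CPM in the same order of lines, and *PTPRC*, *CD3E* and *LYZ* were at or under the floor throughout. The 5 fibroblast markers summed to 77.6 to 87.0 CPM in HK2, 282 to 351 CPM in 786-O and 302 to 306 CPM in 786-M1A, with *COL1A1* at 53.6, 291 and 16.5 CPM and *PDGFRB* at 4.98, 2.59 and 282 CPM on average, so that different markers made up the sum in the carcinoma lines. The 8 neuron and glia markers summed to 17.9 to 18.4, 4.23 to 4.72 and 6.66 to 7.10 CPM. The part of these marker levels in the results below was not tested, and in bulk RNA fewer expressing cells cannot be told apart from less RNA per cell.

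Between 786-O and HK2, *EPHB4*, *SEMA3E* and its receptor *PLXND1* were far lower in the carcinoma line, while *PLXNA2*, *SEMA5B*, *SEMA6D*, *SEMA4B* and *SEMA6A* were far higher. Of the 40 members tested, 36 passed edgeR's quasi-likelihood test at an adjusted p of 0.05, against 84.2% of all 12695 genes tested. Their directions were uneven, with 26 higher in 786-O (65% of members, against 41.6% of all genes) and 10 lower (25%, against 42.6%). At least a 2-fold difference was found for 15 members, 10 higher (25%, against 9.18% of all genes) and 5 lower (12.5%, against 13.1%). The median log2 fold change was 0.36 over the members and -0.01 over all genes tested. In 36 members the libraries of the lines did not overlap, against 85.4% of all genes, so that a call or a gap between libraries is by itself the common case in these data.

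Between 786-M1A and HK2, 35 members were called, against 84.9% of all genes. Of these, 19 were higher in 786-M1A (47.5%, against 41.6%) and 16 lower (40%, against 43.3%). The 20 members that differed at least 2-fold (50%, against 25.4% of all genes) were split into 10 higher (25%, against 10.4%) and 10 lower (25%, against 15%), and the median of the members was 0.01 against -0.02 over all genes. Between 786-M1A and its parental line, 29 members were called, against 56% of all genes, 12 of them higher (30%, against 27.9%) and 17 lower (42.5%, against 28%). Only 5 members differed at least 2-fold here (12.5%, against 6.59%), with *SEMA6D* higher (2.5%, against 2.03%) and *EPHA5*, *EPHB1*, *SEMA6B* and *EFNA1* lower (10%, against 4.55%). The median was -0.20 over the members and 0.00 over all genes. The libraries did not overlap for 35 members between 786-M1A and HK2 (against 85% of all genes) and for 29 between the carcinoma lines (against 61.6%). These 3 comparisons share libraries and are not independent of each other. Of the 40 members, 11 had a mean under 50 counts in at least 1 line and were tested because of the line in which they were high, among them *EPHA3*, *EPHB4*, *SEMA3E*, *PLXNA2*, *SEMA5B* and *SEMA6D*, so that the counts over tested members are a description of the family and not support for a shift of it.

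**Figure D1:**
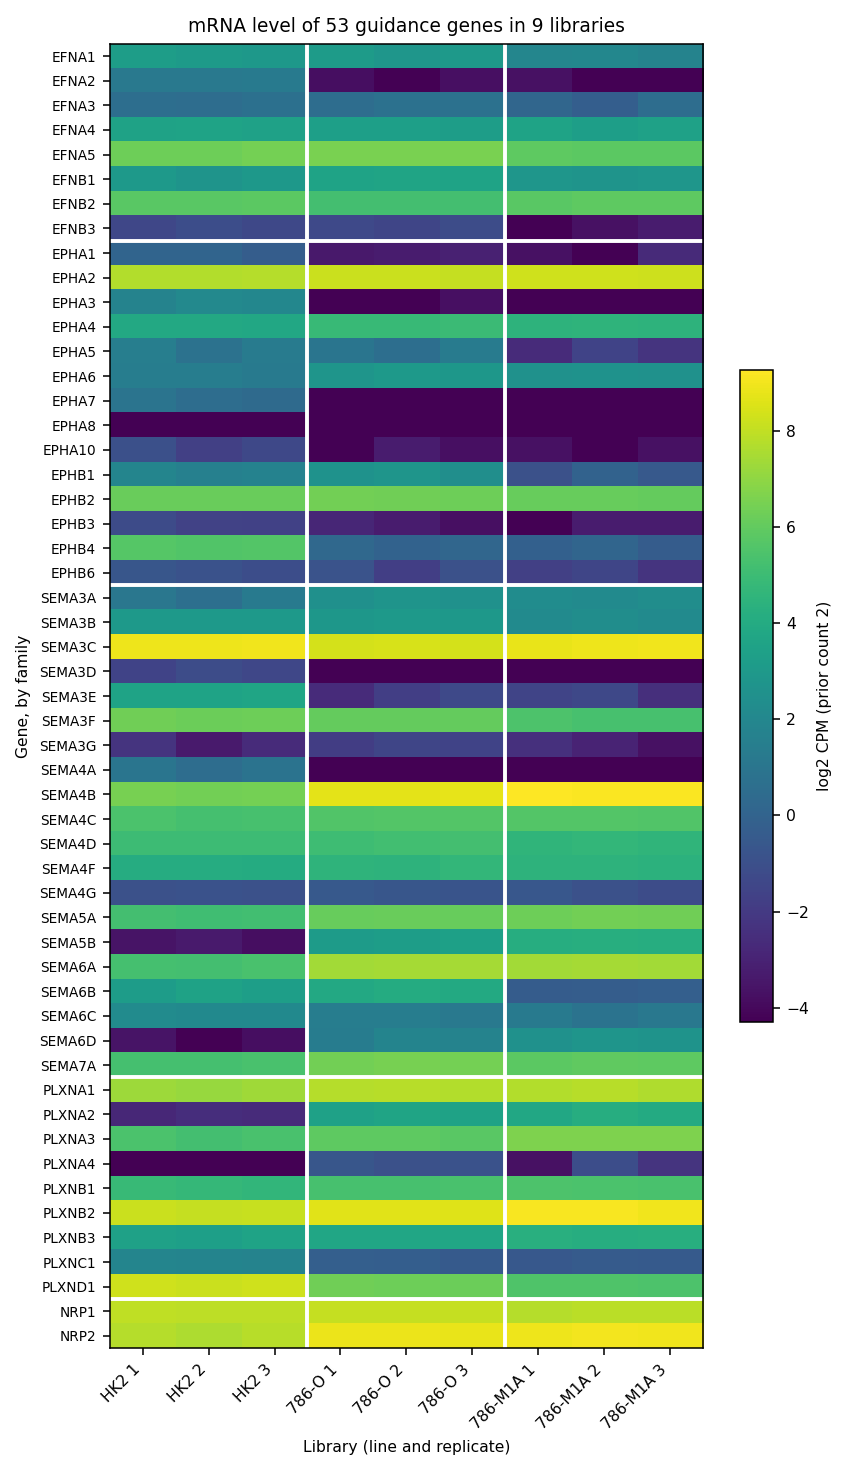
Level of the 53 genes in each of the 9 libraries, as log2 CPM by colour, with genes grouped as Eph receptors, ephrins, semaphorins, plexins and neuropilins. The 3 cultures of a line look alike, *EPHB4* and *SEMA3E* are bright only in the HK2 columns, *PLXNA2*, *SEMA5B* and *SEMA6D* only in the columns of the carcinoma lines, and *SEMA6B* is dark only in the 786-M1A columns.

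The 250 bases upstream of the RefSeq start site are shown for 7 genes whose differences between the lines the results turn on, 3 that were lower in the carcinoma lines (*EPHB4*, *SEMA3E* and *PLXND1*), 3 that were higher (*PLXNA2*, *SEMA5B* and *SEMA6D*) and *EPHB1*, which fell in 786-M1A. Each is read 5′ to 3′ on the strand of its gene from the GRCh38.p14 assembly and ends at the base before the start site. Capitals mark ACGTG or GCGTG on either strand, the core letters bound by the hypoxia-inducible factors.
EPHB4 chr7:100827524-100827773, minus strand: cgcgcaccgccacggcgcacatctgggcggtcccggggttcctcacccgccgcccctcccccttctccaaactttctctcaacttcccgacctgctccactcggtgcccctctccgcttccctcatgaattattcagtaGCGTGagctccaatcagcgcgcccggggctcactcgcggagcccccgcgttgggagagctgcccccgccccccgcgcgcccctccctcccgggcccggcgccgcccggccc
SEMA3E chr7:83649140-83649389, minus strand: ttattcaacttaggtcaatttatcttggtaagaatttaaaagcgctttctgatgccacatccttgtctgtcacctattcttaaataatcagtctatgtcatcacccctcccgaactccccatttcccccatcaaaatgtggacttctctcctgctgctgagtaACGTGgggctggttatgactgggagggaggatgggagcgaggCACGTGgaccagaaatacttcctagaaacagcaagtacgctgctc
PLXND1 chr3:129606677-129606926, minus strand: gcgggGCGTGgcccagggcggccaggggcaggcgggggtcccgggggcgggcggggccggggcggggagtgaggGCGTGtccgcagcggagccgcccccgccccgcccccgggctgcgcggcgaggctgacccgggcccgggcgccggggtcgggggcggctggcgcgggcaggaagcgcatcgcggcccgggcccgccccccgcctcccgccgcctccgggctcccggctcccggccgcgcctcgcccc
PLXNA2 chr1:208244385-208244634, minus strand: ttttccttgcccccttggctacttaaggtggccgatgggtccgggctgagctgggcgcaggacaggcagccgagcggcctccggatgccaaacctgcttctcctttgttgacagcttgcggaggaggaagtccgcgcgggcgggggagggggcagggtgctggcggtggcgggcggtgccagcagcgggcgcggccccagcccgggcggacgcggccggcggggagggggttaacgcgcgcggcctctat
SEMA5B chr3:123028606-123028855, minus strand: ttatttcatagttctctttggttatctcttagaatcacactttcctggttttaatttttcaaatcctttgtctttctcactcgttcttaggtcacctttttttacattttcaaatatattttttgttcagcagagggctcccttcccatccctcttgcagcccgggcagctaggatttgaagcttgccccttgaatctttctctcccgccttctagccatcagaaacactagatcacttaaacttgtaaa
SEMA6D chr15:47183839-47184088, plus strand: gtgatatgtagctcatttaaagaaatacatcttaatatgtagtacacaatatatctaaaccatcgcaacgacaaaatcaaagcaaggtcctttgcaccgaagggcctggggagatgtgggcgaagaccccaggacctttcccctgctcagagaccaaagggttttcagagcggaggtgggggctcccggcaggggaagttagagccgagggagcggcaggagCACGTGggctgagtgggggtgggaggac
EPHB1 chr3:134795010-134795259, plus strand: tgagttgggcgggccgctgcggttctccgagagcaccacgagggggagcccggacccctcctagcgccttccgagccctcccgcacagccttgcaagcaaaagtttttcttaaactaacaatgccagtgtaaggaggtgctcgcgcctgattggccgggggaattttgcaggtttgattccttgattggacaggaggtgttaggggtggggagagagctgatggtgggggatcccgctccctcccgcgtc
The windows of genes that were lower in the carcinoma lines held 1 match in *EPHB4*, 3 in *SEMA3E* and 2 in *PLXND1*, where CACGTG counts as a match on each strand. Those of the genes that were higher held none in *PLXNA2* and *SEMA5B* and 2 in *SEMA6D*, and that of *EPHB1* held none. Over the 47 members with a promoter in the RefSeq table, 20 windows (42.6%) held a match, against 43.1% of all 27305 promoters of the table and 58.3% of the 10191 promoters of genes tested here. CG pairs ranged from 2 to 46 per window over the members, with a median of 17, against 11 over all promoters and 21 over those of genes tested. The 7 windows shown reached from 3 CG pairs in *SEMA5B*, 6 in *SEMA3E* and 9 in *SEMA6D* to 15 in *EPHB1*, 27 in *PLXNA2*, 29 in *EPHB4* and 41 in *PLXND1*, so that windows rich and poor in CG occurred among genes that were lower and among genes that were higher. A match describes these letters only and says nothing about binding in these cells.

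Among the Eph receptors, *EPHB4* and *EPHA3* were far lower in both carcinoma lines than in HK2, and *EPHA5* and *EPHB1* were lower in 786-M1A. Of the 8 tested, 5 were higher and 2 lower in 786-O than in HK2 (41.6% and 42.6% of all genes), and 3 were higher and 4 lower in 786-M1A than in HK2 (41.6% and 43.3%). *EPHB4*, the receptor of ephrin-B2 that marks veins in the developing vasculature, lies on chromosome 7, positions 100802565 to 100827523, minus strand (GRCh38). It stood at 52.1, 47.6 and 50.1 CPM in the HK2 cultures, at 1.17, 0.929 and 1.06 CPM in 786-O, and at 0.857, 1.04 and 0.740 CPM in 786-M1A. The HK2 cultures were all far above those of the carcinoma lines, whose values overlapped with each other. Compared with HK2 it was 46.9-fold lower in 786-O (log2 fold change -5.55, SE 0.09, edgeR adjusted p = 4.61e-23) and 56.5-fold lower in 786-M1A (log2 fold change -5.82, SE 0.09, edgeR adjusted p = 4.77e-23). Between the carcinoma lines the log2 fold change of -0.27 did not pass (edgeR adjusted p = 0.225). An antisense neighbour, *SLC12A9*, shares 69 of the exon bases of *EPHB4*, and the use of strand in counting was not stated.

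*EPHB1*, another EphB kinase, lies on chromosome 3, positions 134795260 to 135260467, plus strand. It was at 3.63, 3.02 and 3.19 CPM in HK2, 6.19, 6.77 and 5.22 CPM in 786-O, and at 0.470, 0.912 and 0.660 CPM in 786-M1A. The 786-O cultures were the highest and the 786-M1A cultures the lowest, with HK2 between them and no overlap. Against HK2 it was 1.85-fold higher in 786-O (edgeR adjusted p = 6.58e-07) and 4.75-fold lower in 786-M1A (edgeR adjusted p = 3.29e-10), so that the metastatic derivative held 8.79-fold less than its parental line (log2 fold change -3.14, SE 0.17, edgeR adjusted p = 9.46e-13). *EPHB2*, the third EphB receptor tested, changed little, from 71.3 ± 0.536 CPM (SD, n = 3) in HK2 to 81.3 ± 2.91 in 786-O and 68.0 ± 1.93 in 786-M1A. Its log2 fold change was 0.19 in 786-O against HK2 (edgeR adjusted p = 2.38e-04), -0.07 in 786-M1A against HK2 (edgeR adjusted p = 0.119) and -0.26 between the carcinoma lines (edgeR adjusted p = 1.57e-05). The value in 786-M1A against HK2 was called lower under upper-quartile scaling.

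Among the EphA receptors, *EPHA3*, which sits on 3p at chromosome 3, positions 89107621 to 89482134, plus strand, was at or near 0 in both carcinoma lines. It stood at 3.37, 4.14 and 3.91 CPM in HK2, at 0, 0 and 0.0236 CPM in 786-O and at 0 in every 786-M1A library. A single count was left among the 786-O libraries against 453 in HK2, a ratio of 479 with an exact 95% interval from 85.5 to 18944 that covers counting error only, and with no count in 786-M1A the level was at least 47.5-fold lower than in HK2. *EPHA5* was instead low only in the metastatic line, at 2.80, 1.74 and 2.52 CPM in HK2, 1.94, 1.49 and 2.45 CPM in 786-O, and at 0.111, 0.286 and 0.158 CPM in 786-M1A. HK2 and 786-O overlapped and did not differ by the test (log2 fold change -0.24, SE 0.19, edgeR adjusted p = 0.246), whereas every 786-M1A library was below both. The 786-M1A level was 12.3-fold below HK2 (edgeR adjusted p = 9.16e-09) and 10.4-fold below 786-O (log2 fold change -3.38, SE 0.34, edgeR adjusted p = 1.42e-07). *EPHA5* shares 535 exon bases with its antisense neighbour *EPHA5-AS1*, which itself had 3 to 8 counts per library in HK2, 2 to 4 in 786-O and none in 786-M1A.

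*EPHA6* and *EPHA4* rose in both carcinoma lines. *EPHA6* was at 2.67, 2.68 and 2.37 CPM in HK2, 6.85, 7.77 and 7.43 CPM in 786-O, and at 5.86, 6.12 and 5.86 CPM in 786-M1A, and *EPHA4*, a receptor that binds ephrins of both classes, at 14.8, 14.8 and 14.5 CPM, 28.8, 28.9 and 30.7 CPM and 21.9, 23.0 and 21.9 CPM. In both genes the 786-O cultures were highest, HK2 lowest and no libraries overlapped. The log2 fold change of *EPHA6* against HK2 was 1.52 in 786-O and 1.21 in 786-M1A (edgeR adjusted p = 2.31e-12 and 2.22e-10), and that of *EPHA4* was 1.00 and 0.60 (edgeR adjusted p = 8.72e-14 and 1.12e-09). *EPHA2*, the receptor of ephrin-A1 that is widely expressed in epithelia and carcinomas, rose from 207, 209 and 218 CPM in HK2 to 295, 295 and 275 CPM in 786-O and to 315, 316 and 302 CPM in 786-M1A. Its gain over HK2 was 1.36-fold in 786-O and 1.47-fold in 786-M1A (edgeR adjusted p = 4.04e-10 and 7.99e-12).

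The 6 Eph receptors under the filter were sparse, and 4 of them had fewer counts in every library of both carcinoma lines than in HK2. *EPHA7* had 56 to 58 counts per library in HK2 and none in the other lines, at least 20.7-fold lower in 786-O and 18.7-fold lower in 786-M1A. *EPHA1* had 31 to 41 counts in HK2, 2 to 3 in 786-O and 0 to 4 in 786-M1A, and *EPHA10*, a member without kinase activity, had 10 to 16, 0 to 2 and 0 to 1. *EPHB3* had 11 to 12 counts in HK2, 1 to 4 in 786-O and 0 to 2 in 786-M1A, while *EPHB6*, the other member without kinase activity, had 18 to 20, 9 to 23 and 6 to 12. *EPHA8* had no count in any library. The number of Eph receptors above the floor in every library of a line was 13 of 14 in HK2 and 8 in each carcinoma line. No share over all genes is given for this number or for the 4 receptors above, so that both are descriptions only.

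None of the tested ephrins differed 2-fold between 786-O and HK2, and only *EFNA1* did so in 786-M1A. At least a 2-fold difference was found for 22.3% and 25.4% of all genes in these comparisons. Of the 6 tested, 2 were higher and 2 lower in 786-O than in HK2 (41.6% and 42.6% of all genes), none higher and 3 lower in 786-M1A than in HK2 (41.6% and 43.3%), and 1 higher and 4 lower in 786-M1A than in 786-O (27.9% and 28%). *EFNB2*, the ephrin-B2 ligand of *EPHB4*, was at 55.5, 56.5 and 56.7 CPM in HK2, 37.4, 37.7 and 37.4 CPM in 786-O, and at 54.9, 60.9 and 59.6 CPM in 786-M1A. The 786-O cultures lay below the others, and 786-M1A overlapped HK2. Its log2 fold change was -0.59 in 786-O against HK2 (edgeR adjusted p = 7.55e-11), 0.05 in 786-M1A against HK2 (edgeR adjusted p = 0.260) and 0.64 between the carcinoma lines (edgeR adjusted p = 9.48e-11).

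*EFNA1*, the classical ligand of *EPHA2*, went the other way from its receptor in 786-M1A, at 9.51, 8.55 and 7.68 CPM in HK2, 8.69, 7.11 and 7.93 CPM in 786-O, and at 3.73, 3.85 and 3.33 CPM in 786-M1A. HK2 and 786-O overlapped, and all 786-M1A cultures were lower. It was 2.34-fold lower in 786-M1A than in HK2 and 2.18-fold lower than in 786-O (edgeR adjusted p = 3.97e-10 and 8.50e-09), against -0.10 on the log2 scale between 786-O and HK2 (edgeR adjusted p = 0.297). *EFNA5*, which also engages EphB2, was highest in 786-O and lowest in 786-M1A, at 81.0 ± 4.13, 93.9 ± 0.371 and 57.9 ± 1.08 CPM (SD, n = 3), and *EFNB1* followed with 7.39 ± 0.738, 11.9 ± 0.374 and 6.91 ± 0.238 CPM, in the order HK2, 786-O, 786-M1A. From 786-O to 786-M1A, *EFNA5* fell by 0.70 and *EFNB1* by 0.78 on the log2 scale (edgeR adjusted p = 7.30e-12 and 2.18e-08). *EFNA4* stayed between 9.99 and 11.3 CPM on average, with a call only between 786-O and HK2 (log2 fold change -0.18, edgeR adjusted p = 0.0286) that was lost under limma. *EFNA3* averaged 1.49, 1.57 and 1.10 CPM in the same order, and its lower calls in 786-M1A, where libraries overlapped with both other lines, were lost under DESeq2. Under the filter, *EFNA2* had 69 to 110 counts per library in HK2 and 0 to 1 in either carcinoma line, a ratio of 142 in 786-O with an exact 95% interval from 39.0 to 1179 and of 257 in 786-M1A with an interval from 45.7 to 10178. *EFNB3* had 10 to 17 counts in HK2, 12 to 17 in 786-O and 0 to 2 in 786-M1A, a ratio of 13.6 between the carcinoma lines with an interval from 4.35 to 68.2.

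*SEMA4B*, *SEMA5B*, *SEMA6A* and *SEMA6D* were far higher in both carcinoma lines than in HK2, and *SEMA3E* far lower. Of the 16 semaphorins tested, 11 were higher and 4 lower in 786-O than in HK2 (41.6% and 42.6% of all genes), and 9 were higher and 6 lower in 786-M1A than in HK2 (41.6% and 43.3%). The secreted class 3 had 1 tested member higher and 3 lower than in HK2 in each carcinoma line. Among the tested class 3 members *SEMA3E* had the largest decrease. It binds plexin-D1 without a neuropilin and restrains vessel sprouting, and lies on chromosome 7, positions 83363238 to 83649139, minus strand. Its HK2 cultures were at 12.1, 12.0 and 12.6 CPM, those of 786-O at 0.113, 0.239 and 0.354 CPM and those of 786-M1A at 0.304, 0.339 and 0.132 CPM. The HK2 libraries stood far above all others, and the carcinoma lines overlapped. The level was 51.7-fold lower in 786-O (log2 fold change -5.69, SE 0.17, edgeR adjusted p = 4.41e-18) and 46.8-fold lower in 786-M1A (log2 fold change -5.55, SE 0.17, edgeR adjusted p = 7.18e-18).

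*SEMA3A*, the neuropilin-1 ligand that collapses growth cones and lies 307 kb from *SEMA3E* on chromosome 7, went the opposite way. It was at 2.09, 1.51 and 2.29 CPM in HK2, 5.65, 6.55 and 5.95 CPM in 786-O, and at 4.84, 4.56 and 5.07 CPM in 786-M1A. Both carcinoma lines were above HK2 in every culture, 3.06-fold in 786-O and 2.45-fold in 786-M1A (edgeR adjusted p = 5.95e-11 and 5.57e-09). *SEMA3D*, 503 kb beyond *SEMA3A*, was under the filter with 9 to 16 counts per library in HK2 and none elsewhere, at least 4.63-fold lower in 786-O and 4.20-fold lower in 786-M1A.

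*SEMA3C*, known for outflow tract development and for promoting cell migration, was at 494, 478 and 498 CPM in HK2, 334, 354 and 341 CPM in 786-O, and at 446, 495 and 504 CPM in 786-M1A. It was lower in 786-O than in HK2 (log2 fold change -0.52, edgeR adjusted p = 1.52e-10) and was near HK2 in 786-M1A, where -0.03 did not pass (edgeR adjusted p = 0.550). *SEMA3F*, the neuropilin-2 ligand, and *SEMA3B* lie 71.2 kb apart on 3p and are known as candidate tumour suppressors. *SEMA3F* was at 79.8, 73.9 and 76.2 CPM in HK2, 66.9, 66.2 and 65.8 CPM in 786-O, and at 45.2, 40.6 and 39.4 CPM in 786-M1A, with no overlap. The log2 fold change was -0.21 in 786-O against HK2 and -0.67 in 786-M1A against 786-O (edgeR adjusted p = 3.49e-04 and 1.77e-10). *SEMA3B* averaged 7.95, 7.56 and 4.68 CPM in the order HK2, 786-O and 786-M1A, and fell by 0.69 on the log2 scale between the carcinoma lines (edgeR adjusted p = 3.43e-07) but not detectably from HK2 to 786-O (edgeR adjusted p = 0.359). *SEMA3G* stayed under the filter with 1 to 12 counts per library.

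In class 4, whose members span the membrane, *SEMA4B* rose most, from 91.2, 84.7 and 88.0 CPM in HK2 to 423, 414 and 430.4 CPM in 786-O and to 618, 592 and 585 CPM in 786-M1A. No libraries overlapped, with HK2 lowest and 786-M1A highest. The gain over HK2 was 4.80-fold in 786-O (log2 fold change 2.26, SE 0.04, edgeR adjusted p = 2.03e-22) and 6.80-fold in 786-M1A (log2 fold change 2.77, SE 0.04, edgeR adjusted p = 8.08e-24), and 786-M1A exceeded 786-O by 1.42-fold (edgeR adjusted p = 1.32e-10). The other tested members moved less, with *SEMA4C* at 0.27 and 0.28 and *SEMA4F* at 0.47 and 0.36 on the log2 scale in 786-O and 786-M1A against HK2, all called. *SEMA4D*, the plexin-B1 ligand, was at 32.3, 31.9 and 31.6 CPM in HK2, 33.3, 35.3 and 37.4 CPM in 786-O, and at 24.3, 25.7 and 23.7 CPM in 786-M1A. It was slightly higher in 786-O than in HK2 (log2 fold change 0.15, edgeR adjusted p = 0.0115, a call lost under upper-quartile scaling) and lower in 786-M1A than in 786-O (log2 fold change -0.52, edgeR adjusted p = 2.14e-08). *SEMA4A*, under the filter, had 57 to 81 counts per library in HK2 and none in the carcinoma lines, at least 23.2-fold lower in 786-O and 21.0-fold lower in 786-M1A, while *SEMA4G*, which shares 1215 exon bases with its antisense neighbour *MRPL43*, had 15 to 29 counts in all libraries.

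Class 5 semaphorins, which carry thrombospondin repeats, were higher in both carcinoma lines. *SEMA5B*, on chromosome 3, positions 122909082 to 123028605, minus strand, was at 0.0321, 0.0496 and 0.0216 CPM in HK2, below the floor in every culture, at 8.78, 9.53 and 10.6 CPM in 786-O, and at 17.5, 18.2 and 17.5 CPM in 786-M1A. It was 259.7-fold higher in 786-O than in HK2 (log2 fold change 8.02, SE 0.22, edgeR adjusted p = 6.69e-19) and 477-fold higher in 786-M1A (log2 fold change 8.90, SE 0.19, edgeR adjusted p = 1.02e-20). Both folds rest on 4 counts over the HK2 libraries, and no exact interval is given for them. 786-M1A in turn exceeded 786-O by 1.84-fold in all cultures (edgeR adjusted p = 9.44e-10). *SEMA5A*, a plexin-B3 ligand, was at 36.6, 35.1 and 36.2 CPM in HK2, 68.3, 70.8 and 68.6 CPM in 786-O, and at 76.3, 81.9 and 79.8 CPM in 786-M1A. Its libraries followed the same order without overlap, with smaller differences from HK2, 0.95 for 786-O and 1.14 for 786-M1A on the log2 scale (edgeR adjusted p = 7.44e-15 and 2.14e-16).

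Class 6 semaphorins are transmembrane ligands of A-class plexins, and its 4 members differed from each other. *SEMA6A*, a plexin-A2 and plexin-A4 ligand, was at 39.0, 37.5 and 41.3 CPM in HK2, 167, 174 and 175 CPM in 786-O, and at 169, 175 and 170.1 CPM in 786-M1A. The carcinoma lines overlapped and were 4.37-fold and 4.35-fold above HK2 (edgeR adjusted p = 3.31e-21 and 3.12e-21). *SEMA6D*, known from heart development and as a plexin-A1 ligand, lies on chromosome 15, positions 47184089 to 47774228, plus strand and was at 0.0321, 0 and 0.0216 CPM in HK2, 2.59, 3.48 and 3.33 CPM in 786-O, and at 5.89, 6.93 and 6.23 CPM in 786-M1A. HK2 held 2 counts over its 3 libraries against 387 in 786-O, a ratio of 183 with an exact 95% interval from 50.4 to 1518, and against 715 in 786-M1A, a ratio of 375 with an interval from 103 to 3099. From 786-O to 786-M1A it rose 2.04-fold (log2 fold change 1.03, SE 0.11, edgeR adjusted p = 1.05e-07), just past the 2-fold mark, which it missed without 786-O replicate 1 and without 786-M1A replicate 2.

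*SEMA6B* was the member that fell furthest between 786-O and its metastatic derivative. It was at 9.06, 11.6 and 9.82 CPM in HK2, 14.8, 16.3 and 15.3 CPM in 786-O, and at 0.746, 0.755 and 0.819 CPM in 786-M1A. The 786-O cultures were the highest, HK2 followed, and the 786-M1A cultures were all under 1 CPM. The level in 786-M1A was 19.9-fold below 786-O (log2 fold change -4.32, SE 0.12, edgeR adjusted p = 2.49e-17) and 13.1-fold below HK2 (log2 fold change -3.72, SE 0.13, edgeR adjusted p = 8.53e-17), although 786-O was 1.52-fold above HK2 (edgeR adjusted p = 2.99e-07). *SEMA6C* was lower in both carcinoma lines, at 4.69, 4.36 and 4.38 CPM in HK2, 2.66, 2.65 and 2.19 CPM in 786-O, and at 2.40, 1.80 and 2.11 CPM in 786-M1A, with log2 fold changes of -0.84 and -1.09 (edgeR adjusted p = 7.45e-07 and 3.08e-08). *SEMA7A*, the lipid-anchored ligand of plexin-C1, was at 38.5, 39.0 and 41.7 CPM in HK2, 84.6, 91.3 and 85.4 CPM in 786-O, and at 58.6, 61.7 and 58.9 CPM in 786-M1A. It was highest in 786-O and in between in 786-M1A with no overlap, 2.18-fold and 1.50-fold above HK2 (edgeR adjusted p = 9.92e-16 and 1.38e-10).

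Plexins of the A and B classes were higher in the carcinoma lines, and plexin-C1 and plexin-D1 were lower. All 6 tested members of classes A and B were called higher than HK2 in both lines, against 41.6% of all genes in each comparison. *PLXNA2*, a receptor of class 6 semaphorins on chromosome 1, positions 208022242 to 208244384, minus strand, was at 0.0964, 0.124 and 0.108 CPM in HK2, 10.9, 12.5 and 11.4 CPM in 786-O, and at 14.5, 17.6 and 15.9 CPM in 786-M1A. HK2 cultures were close to the floor, and the gain was 102-fold in 786-O (log2 fold change 6.67, SE 0.18, edgeR adjusted p = 9.21e-19) and 141-fold in 786-M1A (log2 fold change 7.14, SE 0.17, edgeR adjusted p = 9.19e-20). *PLXNA3* was at 43.6, 37.4 and 41.3 CPM in HK2, 60.5, 59.0 and 55.7 CPM in 786-O, and at 102, 100.3 and 102 CPM in 786-M1A, a rise of 2.48-fold from HK2 to 786-M1A (edgeR adjusted p = 2.11e-16) of which 0.79 on the log2 scale lay between the carcinoma lines (edgeR adjusted p = 7.24e-12). *PLXNA1* rose as well, at 0.49 for 786-O and 0.47 for 786-M1A against HK2 on the log2 scale, and did not differ between them by the test (edgeR adjusted p = 0.652). *PLXNA4*, under the filter, had no count in HK2, 18 to 26 per library in 786-O and 1 to 16 in 786-M1A. It was at least 6.62-fold higher in 786-O than in HK2. The bound of 2.56-fold for 786-M1A holds for the mean only. Its libraries ranged from 0.0276 to 0.417 CPM, the lowest of them under the floor.

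*PLXNB2*, the broadly expressed receptor of class 4 semaphorins, was at 291, 267 and 277 CPM in HK2, 412, 410.0 and 389.5 CPM in 786-O, and at 555, 554 and 510.0 CPM in 786-M1A. HK2 was lowest and 786-M1A highest without overlap, with 786-M1A 1.94-fold above HK2 (log2 fold change 0.96, edgeR adjusted p = 2.37e-15). *PLXNB1* and *PLXNB3* rose by 0.70 and 0.74 on the log2 scale from HK2 to 786-M1A (edgeR adjusted p = 2.31e-11 and 7.24e-10), and reads of *PLXNB3* may be shared with *SRPK3*, which overlaps 1432 of its exon bases on the same strand. *PLXND1*, the receptor of *SEMA3E*, lies on chromosome 3, positions 129555214 to 129606676, minus strand and was at 317, 292 and 315 CPM in HK2, 79.2, 78.5 and 75.9 CPM in 786-O, and at 46.7, 46.6 and 45.1 CPM in 786-M1A. It was 3.96-fold lower in 786-O and 6.68-fold lower in 786-M1A than in HK2 (log2 fold change -1.99, SE 0.04, and -2.74, SE 0.04, edgeR adjusted p = 5.16e-21 and 3.76e-23), with a further drop of 1.69-fold between the carcinoma lines (edgeR adjusted p = 2.38e-12). *PLXNC1*, the receptor of *SEMA7A*, was at 3.66, 3.45 and 3.37 CPM in HK2, 0.811, 0.796 and 0.684 CPM in 786-O, and at 0.636, 0.703 and 0.687 CPM in 786-M1A. It was 4.54-fold and 5.13-fold lower than in HK2 (edgeR adjusted p = 2.79e-12 and 1.65e-12), and the carcinoma lines overlapped.

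The neuropilins parted. *NRP2*, which binds *SEMA3F* and VEGF-C, was at 219, 196 and 225 CPM in HK2, 466, 462 and 447 CPM in 786-O, and at 485, 514 and 502 CPM in 786-M1A. Both carcinoma lines were above HK2 in every culture, by 2.15-fold in 786-O (log2 fold change 1.10, SE 0.04, edgeR adjusted p = 8.39e-16) and 2.34-fold in 786-M1A (log2 fold change 1.23, SE 0.04, edgeR adjusted p = 1.10e-16). *NRP1*, the co-receptor of *SEMA3A* and of VEGF-A, stayed at 245 ± 8.10 CPM (SD, n = 3) in HK2, 267 ± 1.30 in 786-O, and at 227 ± 8.69 in 786-M1A. Its calls were small, with log2 fold changes of 0.12, -0.11 and -0.23 for 786-O against HK2, 786-M1A against HK2 and 786-M1A against 786-O (edgeR adjusted p = 0.00477, 0.00934 and 1.71e-05), and the second of these was lost under limma.

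**Figure D2:**
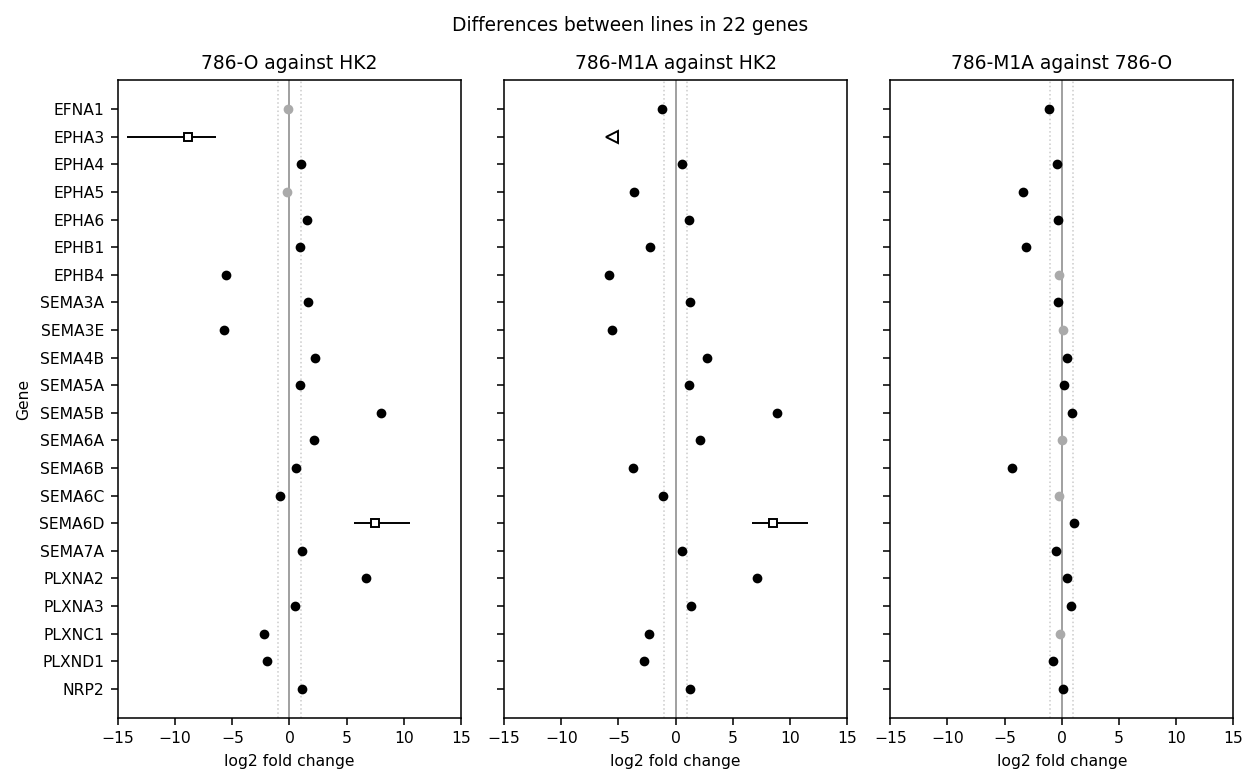
Log2 fold change of the 22 members called with at least a 2-fold difference in any comparison, 1 panel per comparison, with SE as bars that are mostly shorter than the point. Black circles were called by edgeR and grey ones were not, open squares give ratios against 1 or 2 counts with their exact 95% interval, the open triangle is the bound for *EPHA3* in 786-M1A, and no point is drawn for *EPHA3* between the carcinoma lines. Most of the spread lies in the panels against HK2, and in the third panel *SEMA6B*, *EPHA5* and *EPHB1* stand apart on the lower side.

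Set beside each other, ligands and receptors that are known to bind moved together in some pairs and apart in others. *SEMA3E* and *PLXND1* were both lower in the carcinoma lines, by 51.7-fold and 3.96-fold in 786-O. *SEMA6A* and *PLXNA2* were both higher, by 4.37-fold and 102-fold, and so were *SEMA5A* and *PLXNB3*, at 0.95 and 0.27 on the log2 scale. Apart went *SEMA7A* with *PLXNC1*, at log2 fold changes of 1.13 and -2.18 in 786-O, and *EFNA1* with *EPHA2*, at -1.23 and 0.56 in 786-M1A against HK2. *EPHB4* lost nearly all of its RNA in the carcinoma lines while its ligand *EFNB2* kept a level of 37.5 CPM on average in 786-O and of 58.5 CPM in 786-M1A. *SEMA3F* with *NRP2* went apart as well, at -0.88 and 1.23 in 786-M1A against HK2. These pairs were chosen with the values known and their joint movement was not tested.

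**Figure D3:**
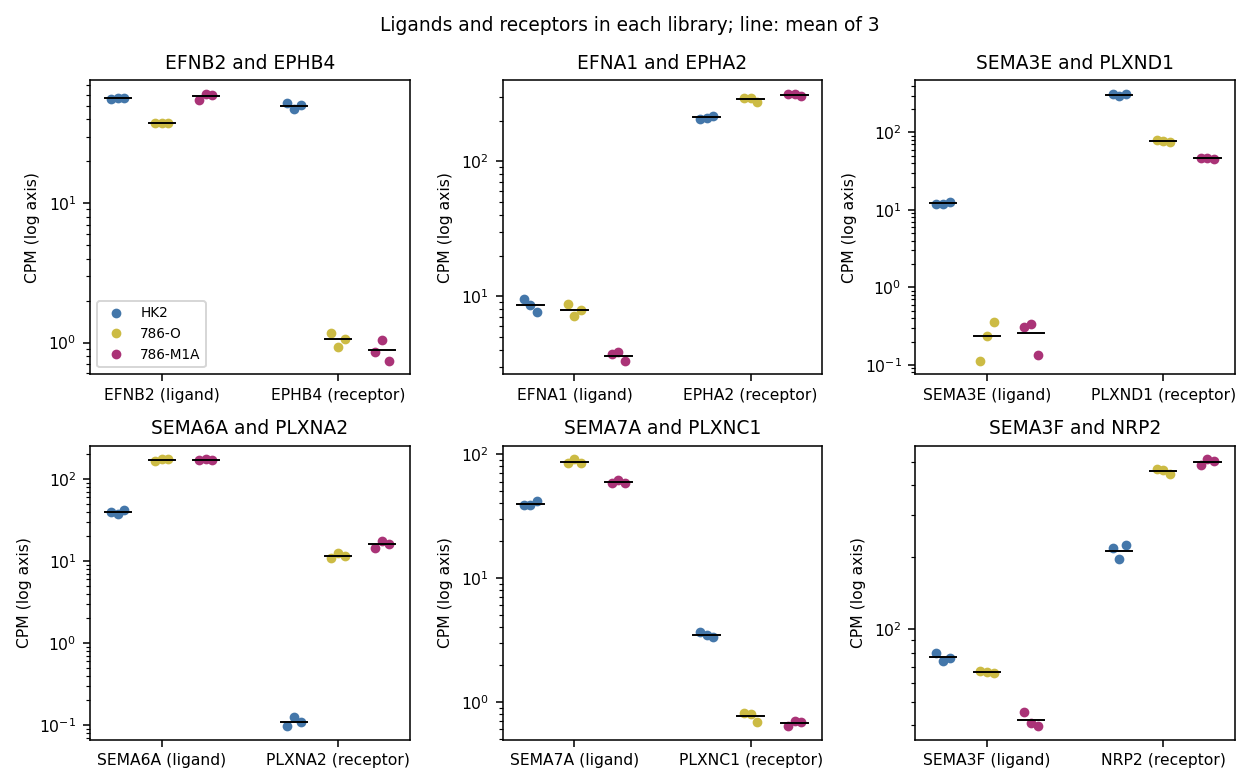
Level in CPM on a log axis of pairs of ligand and receptor known to bind, with 1 point per library for HK2, 786-O and 786-M1A. *SEMA3E* and *PLXND1* go down together from HK2 to the carcinoma lines, *EPHB4* goes down while *EFNB2* stays between 37.5 and 58.5 CPM on average, and *SEMA7A* goes up while *PLXNC1* goes down.

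Levels of different genes were compared per length, as RPKM, the CPM divided by the length of the exons in kilobases, with exons of the GENCODE annotation. These lengths join all annotated exons of a gene, and the annotation used for counting may differ. Orders between genes hold for these lengths only. *EPHA2* led the Eph receptors in all lines at 51.0 ± 1.39 RPKM (SD, n = 3) in HK2, 69.6 ± 2.72 in 786-O, and at 75.2 ± 1.88 in 786-M1A, and made up 74.6%, 85.0% and 89.3% of their summed RPKM. *EPHB4* came next in HK2 with 7.75 RPKM, a place that *EPHB2* held in 786-O and 786-M1A with 6.49 and 5.43 RPKM. By CPM, *EPHB2* stood above *EPHB4* in HK2 (71.3 against 49.9 CPM), with exon lengths of 12516 and 6437 bases. The ephrins were led by *EFNA5* in HK2 and 786-O with 14.1 and 16.4 RPKM, and by *EFNB2* in 786-M1A with 11.7 RPKM, where *EFNA5* had 10.1. Their sum went from 42.4 RPKM in HK2 to 34.8 RPKM in 786-M1A, in contrast to that of the Eph receptors, which went from 68.4 to 84.2 RPKM. *EPHA2* differed by more than this sum, at 51.0 RPKM in HK2 and 75.2 RPKM in 786-M1A. The other receptors together were lower in 786-M1A, with *EPHB4* at 7.75 RPKM in HK2 and 0.137 RPKM in 786-M1A.

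*SEMA3C* alone gave 56.0% of the summed semaphorin RPKM in HK2, with 80.4 RPKM. In the carcinoma lines it stood behind *SEMA4B*, at 56.2 against 60.4 RPKM in 786-O and 79.0 against 85.6 RPKM in 786-M1A, in each case without overlap between libraries. In 786-M1A, *SEMA7A* and *SEMA6A* followed with 15.7 and 15.7 RPKM and could not be ordered. The semaphorin sum was 140.1 to 145 RPKM per library in HK2, 193 to 198 in 786-O and 226 to 231 in 786-M1A. *PLXNB2* led the plexins with 38.2, 55.5 and 74.2 RPKM in HK2, 786-O and 786-M1A, while the share of *PLXND1* in the plexin sum went from 34.9% in HK2 to 8.59% in 786-O and 4.20% in 786-M1A. The order of the neuropilins turned, with *NRP1* above *NRP2* in HK2 (21.3 against 15.4 RPKM) and *NRP2* above *NRP1* in 786-O (33.0 against 23.2 RPKM) and 786-M1A (36.0 against 19.7 RPKM).

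**Figure D4:**
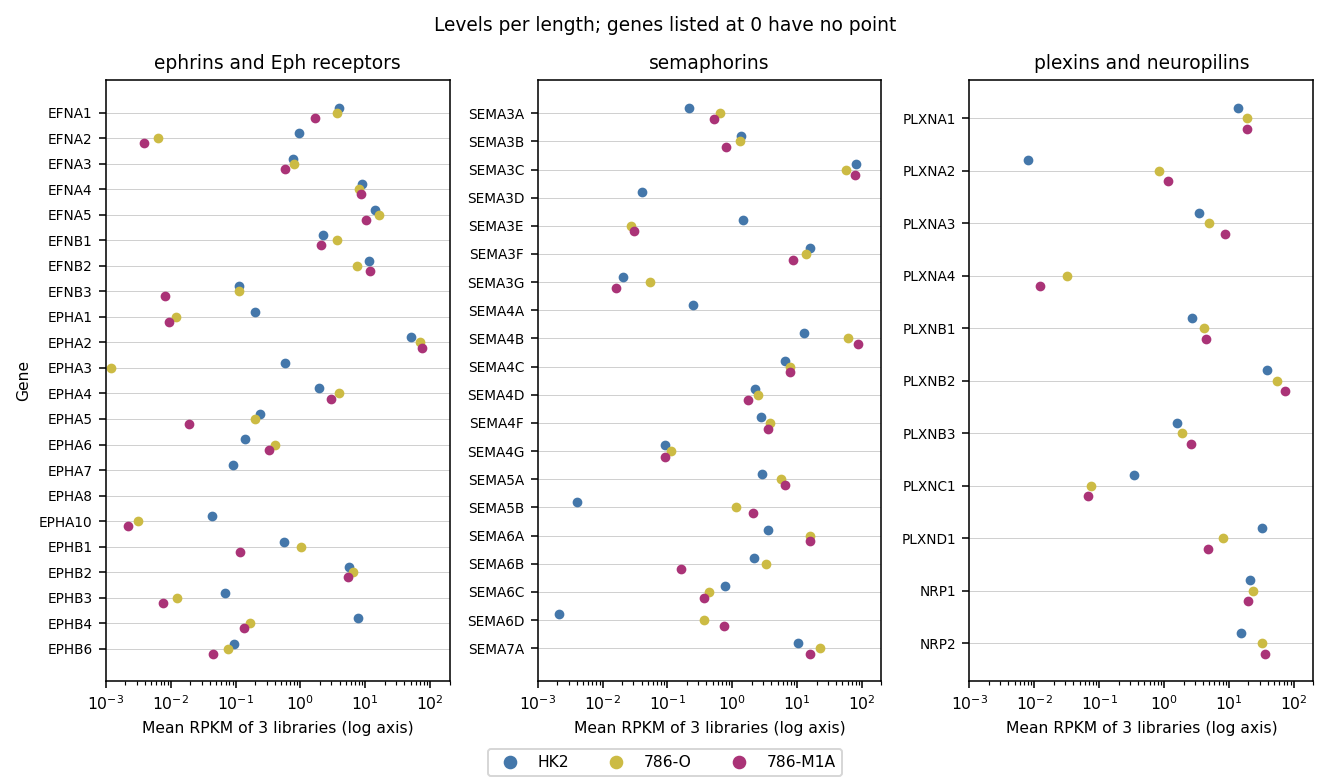
Level per length of each member in RPKM on a log axis, 1 panel per group of genes, with 1 point per line for the mean of 3 cultures. *EPHA2*, *PLXNB2*, *SEMA3C* and *SEMA4B* lie at the upper end, and *EPHB4*, *SEMA3E* and *PLXND1* in HK2 lie to the right of their points in the carcinoma lines.

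Fewer members were detected in the carcinoma lines than in HK2, with 47 of 53 above the floor in every library of HK2, 44 in 786-O and 41 in 786-M1A. No share over all genes is given for these numbers. A level of 1 CPM is a higher bar than the floor. At least 1 CPM in every library was reached by 40 of the 53 members in HK2, by 36 in 786-O and by 32 in 786-M1A, which is 75.5%, 67.9% and 60.4% of them. Of all genes listed, 12872 reached it in HK2 against 12267 in 786-O and 12053 for 786-M1A, or 45.3%, 43.2% and 42.4%, so that the number went down over all genes as well, and the difference between these falls was not tested. Among the 13 members under the filter, *EFNA2*, *EPHA1*, *EPHA7*, *EPHA10*, *EPHB3*, *SEMA3D* and *SEMA4A* were lower in every library of both carcinoma lines than in HK2. The share of all genes under the filter that did so is not given here, so that this is not read as a trait of the members. Among the receptors, 9 of 14 Eph receptors reached 1 CPM in HK2 against 6 in 786-O and 4 in 786-M1A, whereas 7 of 9 plexins reached it in each line.

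By position, 4 tested members lie on the short arm of chromosome 3, which ccRCC often loses. *EPHA3*, *SEMA3B* and *SEMA3F* were lower in 786-M1A than in HK2, and *PLXNB1* was higher. In 786-O against HK2, *EPHA3* and *SEMA3F* were lower and *PLXNB1* was higher. *SEMA3B* was not called there (log2 fold change -0.07, edgeR adjusted p = 0.359). The 327 tested genes of this arm had a median log2 fold change of 0.11 in 786-O and 0.16 in 786-M1A against HK2, with 159 called higher and 92 lower in 786-O and 171 higher and 85 lower in 786-M1A. Over all genes tested, 41.6% were higher and 42.6% lower in 786-O, and 41.6% and 43.3% in 786-M1A. Whether copies of the arm bear on the members' levels was not tested. Members that lie side by side differed in the size of their change. *EFNA4*, *EFNA3* and *EFNA1* are spaced by 9.284 kb and 40.3 kb on chromosome 1, and between the carcinoma lines they had log2 fold changes of 0.13, -0.51 and -1.13, the first of which was not called.

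Among genes that carry the Eph and ephrin signals into the cell or shed the proteins, *INPPL1* was higher and *TIAM1*, *PICK1* and *GRIP1* were lower in both carcinoma lines than in HK2. Of 28 tested genes of this list, 12 were higher and 12 lower in 786-O than in HK2 (41.6% and 42.6% of all genes), 13 and 13 in 786-M1A than in HK2 (41.6% and 43.3%), and 6 and 9 in 786-M1A than in 786-O (27.9% and 28%), with medians of -0.01, 0.06 and -0.06. These counts are near the shares over all genes. *INPPL1*, the phosphatase SHIP2 that docks on EphA2, was at 27.7 CPM on average in HK2, 166 in 786-O, and at 168 in 786-M1A (log2 fold change 2.59 and 2.60 against HK2, edgeR adjusted p = 1.66e-21 and 1.34e-21). *TIAM1*, a Rac exchange factor that binds Eph receptors and ephrin-B, averaged 25.4 CPM in HK2, had 1 to 4 counts per library in 786-O and none in 786-M1A, at least 317-fold lower than in HK2. *PICK1* and *GRIP1*, adaptors with PDZ domains that hold EphB receptors and B-class ephrins, were lower as well, at -2.94 and -1.86 in 786-O and -3.09 and -2.95 in 786-M1A against HK2 on the log2 scale (edgeR adjusted p = 7.66e-17, 1.09e-12, 5.99e-17 and 6.86e-15). Between the carcinoma lines, the exchange factor *NGEF*, also called ephexin-1, rose by 1.28 and *VAV3*, another exchange factor that Eph receptors recruit, changed by -2.34 on the log2 scale (edgeR adjusted p = 7.15e-09 and 8.36e-16).

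Of 27 tested genes of plexin and semaphorin signalling, 12 were higher and 8 lower in 786-O than in HK2 (41.6% and 42.6% of all genes), 14 and 9 in 786-M1A than in HK2 (41.6% and 43.3%), and 12 and 8 in 786-M1A than in 786-O (27.9% and 28%), with medians of 0.08, 0.22 and 0.09. The collapsin response mediators, which carry the class 3 signal to microtubules, went both ways. *DPYSL4* averaged 0.997 CPM in HK2 against 25.2 in 786-O and 43.5 in 786-M1A (log2 fold change 4.65 and 5.43 against HK2, edgeR adjusted p = 1.20e-20 and 2.37e-22), whereas *DPYSL5* averaged 37.4 CPM in HK2 and had no count in the other lines, at least 515-fold lower in 786-O and 467-fold lower in 786-M1A. *L1CAM*, an adhesion molecule that associates with neuropilin-1, averaged 193 CPM in HK2 against 1.87 in 786-O and 3.03 in 786-M1A (log2 fold change -6.70 and -6.00, edgeR adjusted p = 1.89e-25 and 4.15e-25).

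Guidance genes of other families were mostly too low to test, with 11 of 26 passing the filter. Of these, 5 were higher and 5 lower in 786-O than in HK2 (41.6% and 42.6% of all genes), 3 and 7 in 786-M1A than in HK2 (41.6% and 43.3%), and 2 and 5 in 786-M1A than in 786-O (27.9% and 28%), with medians of 0.12, -0.20 and -0.30. *SLIT3*, a ligand of Robo receptors, averaged 31.2 CPM in HK2 against 0.105 in 786-O and 0.124 in 786-M1A (log2 fold change -8.18 and -7.94 against HK2, edgeR adjusted p = 7.98e-22 and 1.12e-21). *FLRT2*, which binds netrin receptors of the UNC5 family, held 8544 counts over the HK2 libraries, 1 over those of 786-O and none in 786-M1A, where it was at least 899.7-fold lower than in HK2. *UNC5B*, a netrin receptor, averaged 0.158, 6.49 and 2.27 CPM in HK2, 786-O and 786-M1A (log2 fold change 5.38 and 3.86 against HK2, edgeR adjusted p = 1.18e-16 and 2.84e-12). Of the VEGF ligands and receptors that pair with neuropilins, 4 of 8 were tested, with 2 higher and 2 lower in either carcinoma line than in HK2, and 2 higher and 1 lower in 786-M1A than in 786-O, too few to be read against the shares over all genes. *VEGFA* averaged 19.3, 162 and 330 CPM in HK2, 786-O and 786-M1A (log2 fold change 3.07 and 4.09 against HK2, edgeR adjusted p = 1.11e-22 and 1.13e-24). Between the carcinoma lines it rose by 1.02 (edgeR adjusted p = 1.51e-14). *PGF* averaged 12.5, 5.96 and 7.56 CPM (log2 fold change -1.07 in 786-O against HK2, edgeR adjusted p = 4.40e-11).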

How the data were processed

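RNA of 3 cultures each of HK2, 786-O and 786-M1A was sequenced from TruSeq Stranded mRNA libraries. The authors counted reads per gene with featureCounts of Rsubread on GRCh38 (hg38) and deposited whole, unnormalized counts for 28395 NCBI gene identifiers. The annotation version and strand setting are not given in the sources used here. Symbols came from RefSeq (GRCh38.p14) and matched 27745 identifiers. Positions and exon lengths came from GENCODE release 44, and promoters from RefSeq.

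The filter of the study's methods, a mean of 50 or more counts, left 12695 genes, which were tested with edgeR 4.0.16 (R 4.3.3) by a quasi-likelihood fit of 9 libraries with TMM scaling, Benjamini-Hochberg adjusted over all of them at 0.05. The biological coefficient of variation was 3.93%. With 3 against 3 cultures an exact permutation test cannot go below p = 0.1, so none is given. Cultures of a line differed beyond sampling noise (chi-square per degree of freedom 3.06 to 8.49) and were kept as 3 replicates. Members and lists were chosen with earlier results of these data known. The members named with full values were those called with at least a 2-fold difference in any comparison, and others by their role as ligand or receptor of these. For genes with 0 counts in a line, folds are bounds at a floor of 3 counts per library, and for 1 to 3 counts, ratios have an exact 95% interval. Intervals and floors cover counting error only. DESeq2 1.42.0, limma 3.58.1, other scalings and filters, a fit of the lines compared alone, a replicate block and leaving out each library were the alternatives. The tests were also run on simulated counts, whose means and spread were taken from these data. Proteomics, metabolomics and tumour data were not analysed here. The summed level of the leukocyte markers and 1 of these markers are not reported here.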

Additional observations from a re-analysis of the deposited data

Results flagged for a closer look

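In 5 of the 40 tested members (12.5%, against 3.37% of all genes tested), 786-O was called on one side of HK2 and 786-M1A on the other, so that the direction against HK2 differed between the carcinoma lines. The difference itself is the comparison of 786-M1A with 786-O, which shares its libraries with the others. *SEMA6B* was above HK2 in 786-O and below it in 786-M1A, and the log2 fold change between the carcinoma lines was -4.32 (edgeR adjusted p = 2.49e-17). *EPHB1* had the same pattern with -3.14 (edgeR adjusted p = 9.46e-13), and so did *EFNA5* with -0.70 (edgeR adjusted p = 7.30e-12). For these genes all 3 calls were kept under each of the 17 alternatives. *SEMA4D* differed by -0.52 (edgeR adjusted p = 2.14e-08) and kept all 3 calls under 15 alternatives, not under upper-quartile scaling or without 786-O replicate 3. *NRP1* differed by -0.23 (edgeR adjusted p = 1.71e-05) and kept them under 13 alternatives. It lost at least 1 call under limma, without the filter, without HK2 replicate 1 and without 786-M1A replicate 1. No other member was called on opposite sides of HK2, and outliers among cultures were not looked for in groups of 3.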

How the results depend on the processing

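Of 1095 log2 fold changes of the 22 named members recomputed under the alternatives, 1077 kept their direction and their side of the threshold. Of 204 recomputed counts of members called, 195 stayed within 1.5 times the reported count. For the other filters no shares over all genes are given, so that the counts of members under them are descriptions only. Without a filter 52 members were tested. In 786-O against HK2, 28 in place of 26 were then called higher and 16 in place of 10 lower. The members lower by at least 2-fold then numbered 12 in 786-O against HK2, 18 in 786-M1A against HK2 and 7 in 786-M1A against 786-O, as more sparse genes were tested. With at least 10 counts in every library 35 members were tested, and those with at least a 2-fold difference in 786-O against HK2 fell to 6 higher and 3 lower, with 0 higher in 786-M1A against 786-O. Leaving out each library in turn gave 0 to 1 for this last count, with 0 without 786-O replicate 1 and without 786-M1A replicate 2, where *SEMA6D* fell below 2-fold. The 10 members higher by at least 2-fold in 786-O against HK2 became 9 under RLE scaling, upper-quartile scaling and DESeq2. Leaving out libraries gave 9 to 10. *EPHA4* stood just past the 2-fold mark there, at a log2 fold change of 1.0034.

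2 values that were not called changed sign between 786-M1A and 786-O. *SEMA6A* became 0.0020 under RLE scaling, 0.0020 under DESeq2 and 0.0013 without a filter, and ran from -0.020 to 0.0099 when libraries were left out, while *SEMA3E* ran from -0.21 to 0.59. *SEMA3A* between these lines was not called under limma (log2 fold change -0.34, adjusted p = 0.0540), without 786-O replicate 2 or without 786-M1A replicate 2. *NRP2* between them was not called without 786-O replicate 3 or without 786-M1A replicate 2, and *EPHA5* in 786-O against HK2 was called without HK2 replicate 2 (log2 fold change -0.43, adjusted p = 0.0367). *EPHA3* was not tested when an HK2 library was left out. The cause of these changes was not tested.

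The replicate numbers in the labels were not used to pair the cultures in the main fit. Deviations of libraries with the same number correlated at 0.074 to 0.215 between the carcinoma lines and at -0.167 to 0.0376 with HK2. Libraries with unlike numbers were not compared in this way, so that a pairing was not tested. When replicate numbers were fitted as a block, the counts of members called were 26 higher and 10 lower, 19 and 16, and 12 and 17 in the 3 comparisons, as without the block. Other scalings moved the median of all genes by less than 0.1 on the log2 scale. Genes near the floor, such as *EPHA3*, *SEMA5B* and *SEMA6D* in their low lines, have folds limited by depth.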
